A study of Mus musculus with 18 samples.

Results

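The genes described here encode the transforming growth factor-beta (TGF-beta) and bone morphogenetic protein (BMP) pathway, from the ligands and the proteins that store or cleave them to the receptors, antagonists, Smads and Id proteins. They were chosen by gene symbol and make up 66 of the 55486 genes of the count table. By role they were 3 TGF-beta ligands, 5 activin and inhibin subunits, 20 BMP or growth and differentiation factor (GDF) ligands, 5 genes of latency and processing, 13 receptors, 8 antagonists, 8 Smads and 4 Id genes. Of the 66, 52 passed the filter on low counts and were tested, among 14273 tested genes.

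Poly(A) RNA was sequenced from primary normal fibroblasts (NFs) of the mammary gland of FVB/n mice, sorted by the surface peptidase CD26 into CD26- and CD26+ NFs and cultured for 7 days. For each cell type, 3 libraries came from control conditioned medium and 6 from conditioned medium (CM) of WEPtn tumour cell lines, which stem from invasive lobular carcinomas of mice with WapCre and Cdh1F/F among their alleles, where a milk-protein promoter drives Cre in mammary epithelium and deletes the gene of E-cadherin. The 6 lines were 13-MCB-17, 10-SJK-221, 18-MCB-12, 13-MCB-44, 13-MCB-90 and 13-MCB-138, and CM of every line went onto 1 CD26- and 1 CD26+ culture, so the 2 libraries of a line form a pair. The comparisons ask what tumour-derived factors do to each cell type, how the cell types differ in each medium and whether the tumour lines differ. The NFs had been gated as negative for EpCAM, CD49f, CD45 and CD31, were pooled from several female mice for a sort and were grown on collagen type I. Donors of NFs were mTmG mice or mice with floxed alleles that lacked WapCre, both FVB/n, and which of these gave the present cultures is not stated.

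TGF-beta is secreted in a latent complex with a binding protein of the LTBP family and has to be released before it can bind its receptors. Ligands of the family bind a type II receptor that activates a type I receptor, which then phosphorylates Smad2 and Smad3 for TGF-beta and activin, or Smad1, Smad5 and Smad9 for BMPs. Smad4 joins both branches, Smad6 and Smad7 inhibit them, secreted antagonists such as gremlin, noggin and follistatin capture ligands outside the cell, and Id genes are direct targets of the BMP branch. In mammary stroma the pathway is best known for driving contractile, matrix-producing myofibroblasts.

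Library totals ran from 9725723 to 14585349 counts, with no group apart from the others. The cell type labels were checked against marker lists, given as summed CPM, the counts scaled to a common library size. All 9 fibroblast markers were detected in every group, with a summed level of 16525 to 18490 CPM in CD26- control, 9813 to 21488 in CD26- CM, 62522 to 79501 in CD26+ control and 29191 to 52131 in CD26+ CM libraries. The 12 epithelial markers summed to 4495 to 4993, 2758 to 4554, 749 to 1331 and 664 to 1593 CPM in the same order, so CD26- libraries held more epithelial marker RNA than CD26+ libraries without overlap, although the sort had removed EpCAM-positive cells. Mean Epcam was 231 CPM in CD26- control and 58.4 CPM in CD26+ control libraries, mean Krt8 was 1227 and 269 CPM, and Elf5 had at most 4 counts in any library. Immune markers summed to 24.4 to 54.9 CPM over all libraries, mostly from Csf1r (17.5 to 21.7 CPM as group means) and Cd14 (7.18 to 20.7 CPM), with Cd3e and Ptprc at or near 0, and endothelial markers to 2.27 to 9.16 CPM. In control medium the immune sum was 40.8 to 45.0 CPM in CD26- and 24.4 to 29.9 CPM in CD26+ libraries. Pericyte markers summed to 66.7 to 78.1 and 37.1 to 43.3 CPM there, and to 36.2 to 75.9 and 46.8 to 75.5 CPM in CM. Adipocyte markers reached at most 1.15 CPM in CD26- and 2.54 to 15.7 CPM in CD26+ libraries. The part of these lists in the results was not tested. Skeletal muscle markers reached 9.76 to 73.4 CPM in CD26- CM and at most 2.13 CPM elsewhere, and their part in the CD26- results was not tested. Dpp4, which encodes CD26, was at most 0.171 CPM in both control groups and 0.715 to 7.80 CPM in CD26+ CM, so its RNA did not separate the cell types in control medium.

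Promoter sequences of 4 members are shown first because these genes stand for 4 of the patterns below. Grem1 encodes the BMP antagonist gremlin 1 and rose in both cell types in tumour CM. Gdf10 encodes a BMP-related ligand and moved in opposite directions. Id2 encodes a helix-loop-helix inhibitor and rose in CD26+ NFs alone at the threshold used, and Smad6 encodes an inhibitory Smad that was higher in CD26+ NFs in both media. Each sequence is taken from RefSeq on GRCm38.p6, runs 5′ to 3′ on the gene's strand and holds 250 bases before and 50 bases from the transcription start. Capitals mark the letters GGCGCC and GCCGNCGC, known from BMP-responsive promoters, and GTCTAGAC, a Smad-binding palindrome, on either strand and with overlaps counted. The windows are chr2:113758599-113758898 on the minus strand for Grem1, chr14:33923337-33923636 on the plus strand for Gdf10, chr12:25096043-25096342 on the minus strand for Id2 and chr9:64022010-64022309 on the minus strand for Smad6.
Grem1: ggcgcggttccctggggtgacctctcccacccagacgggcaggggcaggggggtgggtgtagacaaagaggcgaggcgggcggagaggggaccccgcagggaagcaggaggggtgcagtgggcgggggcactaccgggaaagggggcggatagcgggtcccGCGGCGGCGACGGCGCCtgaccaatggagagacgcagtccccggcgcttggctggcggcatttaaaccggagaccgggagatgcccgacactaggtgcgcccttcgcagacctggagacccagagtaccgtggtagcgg
Gdf10: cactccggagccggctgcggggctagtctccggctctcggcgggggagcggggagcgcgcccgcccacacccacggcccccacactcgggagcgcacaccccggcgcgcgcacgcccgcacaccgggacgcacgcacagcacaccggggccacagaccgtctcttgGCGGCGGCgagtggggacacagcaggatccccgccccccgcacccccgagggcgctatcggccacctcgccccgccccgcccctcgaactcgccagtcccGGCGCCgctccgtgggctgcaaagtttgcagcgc
Id2: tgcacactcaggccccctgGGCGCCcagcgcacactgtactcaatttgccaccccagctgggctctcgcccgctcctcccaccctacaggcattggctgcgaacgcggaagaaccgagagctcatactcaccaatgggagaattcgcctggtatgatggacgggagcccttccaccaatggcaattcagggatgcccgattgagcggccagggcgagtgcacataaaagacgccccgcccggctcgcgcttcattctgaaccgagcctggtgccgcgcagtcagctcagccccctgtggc
Smad6: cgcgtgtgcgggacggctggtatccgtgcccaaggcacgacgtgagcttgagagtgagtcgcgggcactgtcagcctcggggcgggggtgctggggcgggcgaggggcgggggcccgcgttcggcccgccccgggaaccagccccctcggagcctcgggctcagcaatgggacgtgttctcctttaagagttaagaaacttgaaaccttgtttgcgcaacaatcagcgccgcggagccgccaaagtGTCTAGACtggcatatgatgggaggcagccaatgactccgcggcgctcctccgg
In Grem1 the GGCGCC begins at position -78 and shares bases with 1 of 2 matches to GCCGNCGC. The GGCGCC of Gdf10 begins at position 17, that of Id2 at position -231, and the GTCTAGAC of Smad6 at position -4. Over the 58 promoters found for 47 members, GGCGCC occurred in 15 (25.9%) against 11.9% of the 32851 promoters of that length. GCCGNCGC occurred in 17 (29.3%) against 9.76%, GTCTAGAC in 1 (1.72%) against 0.213%, and the shorter Smad-binding letters CAGAC in 29 (50.0%) against 49.6%. Each of the 4 promoters shown holds a marked match, so they do not stand for the promoters of the members. A match describes letters in a window and is not a measured site, and whether matches go with the patterns was not tested.

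Tumour CM changed 14 of the 52 tested members in CD26- NFs, counted at a false discovery rate (FDR) of 0.05 over all tested genes in edgeR's quasi-likelihood test. Of these, 8 (15.4% of the members) were higher against 7.88% of all tested genes, and 6 (11.5%) were lower against 7.28%. In CD26+ NFs 19 members changed, with 11 (21.2%) higher against 15.2% of all genes and 8 (15.4%) lower against 13.4%. The 2 cell types differed in 29 members in control medium, where 20 (38.5%) were higher in CD26+ NFs against 25.0% of all genes and 9 (17.3%) were lower against 25.4%. In tumour CM they differed in 32 members, with 25 (48.1%) higher in CD26+ NFs against 29.3% and 7 (13.5%) lower against 29.3%. The CM effect itself differed between the cell types for 10 members, 6 (11.5%) toward CD26+ NFs against 4.53% and 4 (7.69%) toward CD26- NFs against 3.01%. Among the 6 lines, 13 of 51 tested members differed, 25.5% against 6.56% of 13344 genes.

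Most of these changes were small. With the study's added limit of a log2 fold change over 2 or under -2, 1 member remained in CD26- NFs, Bmp10, beside 0.904% of all genes, and 2 in CD26+ NFs, Bmp10 and Bmp2, beside 2.01%. Bmp10 entered the test only through CD26- CM, where it was high, so these counts hold 1 member whose large fold the filter favoured. Bmp7 and Bmp8b likewise entered only through CD26- libraries, so their places among the members lower in CD26+ NFs, and that of Bmp10 in tumour CM, are a description. The same limit left 4 members between the cell types in control medium (Bmp8b, Gdf6, Gdf10 and Tgfbr3, beside 5.97% of all genes) and in tumour CM Bmp8b alone, which is not read as a result (4.16% of all genes were past it). It left 0 for the difference in CM effect in edgeR, beside 0.392% of all genes. For that difference 20 members had an unadjusted p under 0.05 in edgeR and 12 passed the FDR without that limit in DESeq2. Shares of all genes by either measure are not given here, so these counts are not read as results. The median log2 fold change of the tested members was 0.02 in CD26- NFs and 0.06 in CD26+ NFs for the CM effect, against 0.01 and -0.00 over all genes. Between the cell types it was 0.11 in control medium and 0.31 in tumour CM, against 0.01 and -0.00 over all genes, so members leaned toward CD26+ NFs in tumour CM. The comparisons share libraries, so their values are given side by side throughout.

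**Figure D1:**
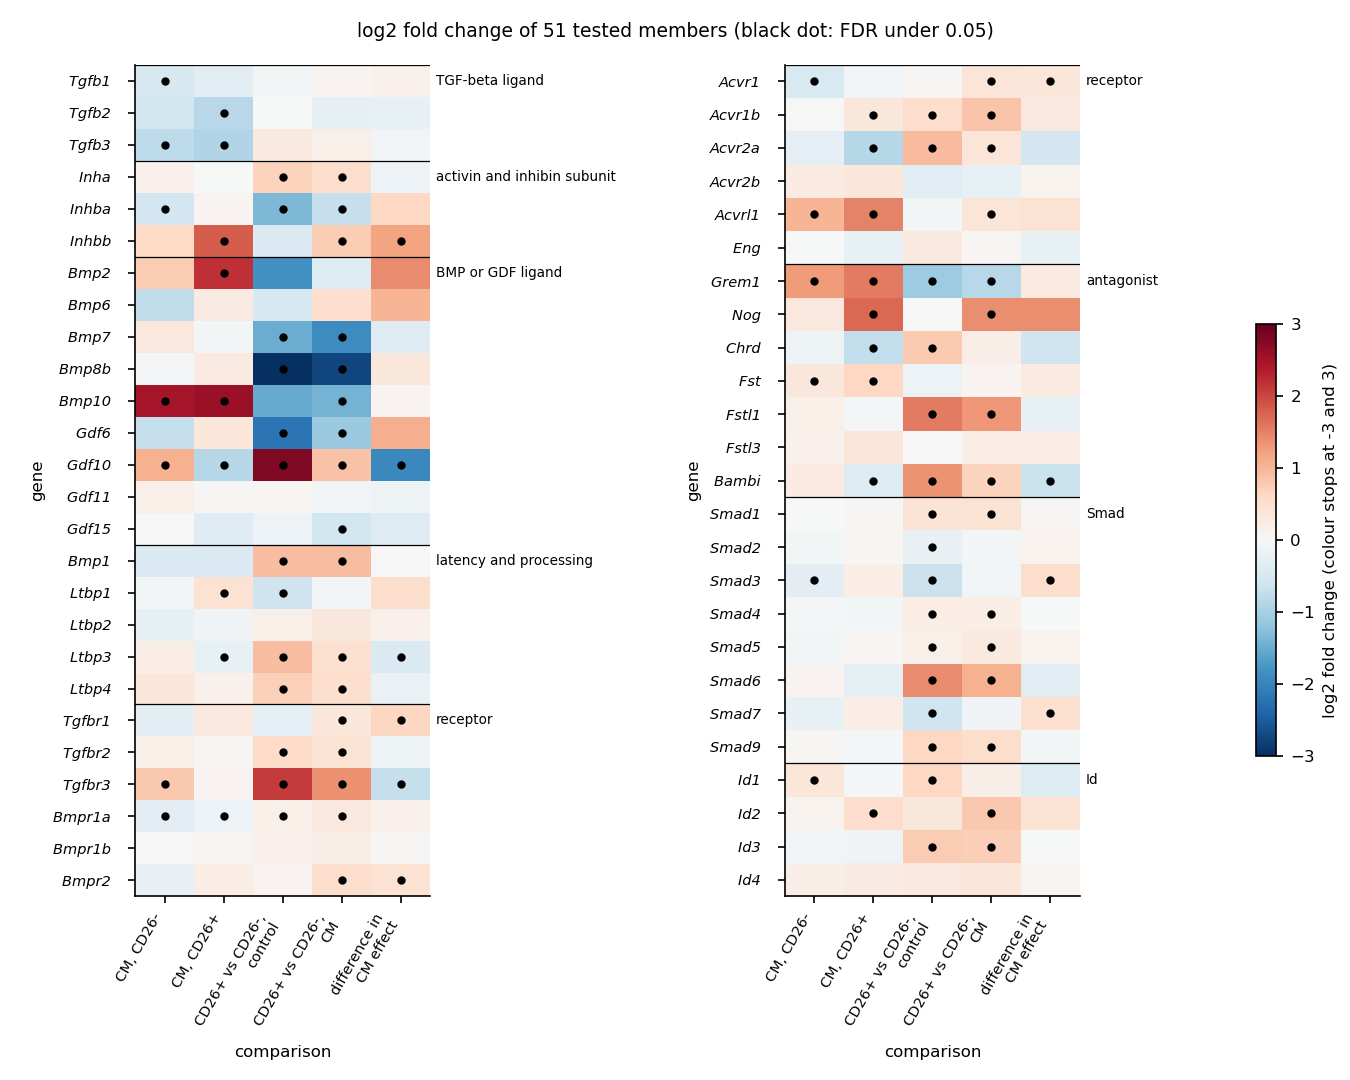
Log2 fold change of 51 tested members (y axis, grouped by role) in 5 comparisons (x axis), where red is higher with CM or in CD26+ NFs, blue is lower, and a black dot marks an FDR under 0.05. Dots fill the 2 cell type columns, with 29 and 32 members, and are fewer in the CM columns.

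Epithelial marker RNA moved with the cell types, and the mean log2 CPM of the detected epithelial markers was added as a covariate in an alternative fit. This mean ran from 6.44 to 7.48 in CD26- and from 4.78 to 6.17 in CD26+ libraries. It therefore runs nearly along the cell type contrast. In CD26- NFs it was also lower in CM (6.44 to 7.22) than in control medium (7.24 to 7.48), without overlap. In either contrast calls lost with it cannot be told apart from a loss of precision. With it, 13 members passed the FDR between cell types in control medium, and 13 of the 32 in tumour CM. Those of control medium were 12 of the 29 (Acvr1b, Bambi, Bmp1, Fstl1, Gdf10, Grem1, Id3, Ltbp3, Smad1, Smad6, Tgfbr2 and Tgfbr3) and Tgfb2. In tumour CM they were Acvr1, Acvr1b, Bmp1, Bmp8b (tested only through CD26- libraries), Bmpr2, Fstl1, Grem1, Id3, Nog, Smad1, Smad6, Tgfbr2 and Tgfbr3. For the CM effect, where the covariate was added after the data had been seen, 5 of the 14 members kept their call in CD26- NFs (Acvr1, Acvrl1, Bmp10, Bmpr1a and Tgfbr3), while Tgfb3 stood at log2 -0.56 (adjusted p = 0.215) and Grem1 at 0.80 (adjusted p = 0.297). The count in CD26+ NFs was 20, of which 17 were among the 19 and Tgfb2 and Bmp2 were not. The interaction kept 9 of its 10 members, without Acvr1 and with Id2. Shares of all genes past the FDR with this covariate are not given here, so these counts are not read as particular to the members. In bulk libraries fewer cells of a type and less RNA per cell cannot be told apart.

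The 3 TGF-beta ligands had lower mean levels in tumour CM in both cell types, and 4 of the 6 differences passed the test, Tgfb1 and Tgfb3 in CD26- NFs (7.28% of all genes were lower) and Tgfb2 and Tgfb3 in CD26+ NFs (13.4%). With the epithelial covariate Tgfb3 in CD26+ NFs kept its call and the other 3 did not. Tgfb1, the most widely expressed isoform, stood at 139, 142 and 125 CPM in CD26- control libraries and at 76.2, 86.0 and 122 CPM (lowest, median and highest) in CD26- CM. Its CD26+ values were 129, 127 and 129 CPM in control medium and 85.1, 101 and 121 CPM in CM. Every CM library lay below every control library of its cell type. The log2 fold change was -0.51 ± 0.13 (SE) with an adjusted p of 0.0173 in CD26- NFs and -0.35 ± 0.14 with an adjusted p of 0.0606 in CD26+ NFs.

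Tgfb3, an isoform of mesenchymal tissue, was 146, 142 and 151 CPM in CD26- control libraries and 58.9, 77.5 and 123 CPM in CD26- CM. The CD26+ libraries held 171, 177 and 189 CPM in control medium and 72.2, 85.7 and 131 CPM in CM. The groups did not overlap in either cell type, and Tgfb3 fell by 0.80 ± 0.22 on the log2 scale in CD26- NFs (adjusted p = 0.0233) and by 0.91 ± 0.22 in CD26+ NFs (adjusted p = 0.0053). Tgfb2 stood at 32.9, 42.4 and 40.7 CPM in CD26- control and 16.4, 22.1 and 38.5 CPM in CD26- CM libraries, and at 34.1, 37.0 and 43.9 CPM in CD26+ control and 12.5, 17.6 and 40.9 CPM in CD26+ CM. Its groups overlapped, and it passed the test in CD26+ NFs (log2 -0.83 ± 0.30, adjusted p = 0.0456) but not in CD26- NFs (log2 -0.58 ± 0.30, adjusted p = 0.204). Neither a cell type difference nor a difference in CM effect passed the test for these 3 ligands, and each of the 3 differed among the lines. With the tumour line as a block, Tgfb2 was lower (log2 -0.30, adjusted p = 0.0251) and Tgfb3 higher (log2 0.19, adjusted p = 0.0186) in CD26+ than in CD26- NFs in tumour CM. Exons of Tgfb3 overlap Gm48008 on the other strand over 7.60% of their length, and the counting strand is not given in the sources used here.

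Among activin and inhibin subunits Inhba, which encodes the beta-A subunit of activin A, had the highest level. It was 3406, 3487 and 3570 CPM in CD26- control libraries and 1637, 2464 and 2934 CPM in CD26- CM, all CM libraries below the controls (log2 -0.54 ± 0.17, adjusted p = 0.0432). CD26+ libraries held 1409, 1248 and 1486 CPM in control medium and 1087, 1390 and 1837 CPM in CM, with overlap (log2 0.07 ± 0.18, adjusted p = 0.802). Inhba was lower in CD26+ than in CD26- NFs in control medium (log2 -1.34 ± 0.21, adjusted p = 3.99e-05) and in tumour CM (log2 -0.72 ± 0.15, adjusted p = 0.000369). With the epithelial covariate these became -0.80 (adjusted p = 0.111) and -0.26 (adjusted p = 0.535).

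Inhbb, which encodes the beta-B subunit, showed another pattern. It was 35.3, 37.2 and 34.8 CPM in CD26- control and 43.9, 54.1 and 61.1 CPM in CD26- CM libraries (log2 0.59 ± 0.24, adjusted p = 0.0991). CD26+ NFs went from 26.2, 24.7 and 27.1 CPM to 45.3, 106 and 118 CPM (log2 1.81 ± 0.25, adjusted p = 4.9e-05). CM libraries lay above controls in both cell types, and the rise was larger in CD26+ NFs (difference 1.22 ± 0.33, adjusted p = 0.033). Inha, the alpha subunit of inhibins, was low, with group means equal to at most 2.59 CPM per kb of exon, and was higher in CD26+ NFs in both media (log2 0.69 and 0.52, adjusted p = 0.0301 and 0.0166). Inhbc was at 0 in every library and Inhbe had 1 count in 1 library, and neither was tested.

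Of the 20 BMP and GDF ligands 9 were tested, and Gdf10, a BMP3-related ligand, moved in opposite directions. It was 5.61, 6.15 and 5.28 CPM in CD26- control libraries and 7.52, 10.8 and 19.5 CPM in CD26- CM, all CM libraries higher (log2 1.06 ± 0.23, adjusted p = 0.00612). CD26+ NFs held 38.0, 46.0 and 35.6 CPM in control medium and 19.5, 21.0 and 27.3 CPM in CM, all CM libraries lower (log2 -0.87 ± 0.18, adjusted p = 0.00193). Gdf10 was higher in CD26+ NFs without overlap in control medium (log2 2.81 ± 0.25, adjusted p = 1.2e-07) and by less in tumour CM (log2 0.89 ± 0.16, adjusted p = 0.000153), where the covariate gave 0.45 (adjusted p = 0.296). The CM effects differed by -1.92 ± 0.30 (adjusted p = 0.00277) and by -1.84 with the covariate (adjusted p = 0.00259).

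Bmp2, a potent inducer of bone formation, was scarce and spread widely. It was 0.968, 1.11 and 1.69 CPM in CD26- control and 0.354, 2.26 and 3.49 CPM in CD26- CM libraries, and 0.162, 0.444 and 0.445 CPM in CD26+ control and 0.179, 1.44 and 3.34 CPM in CD26+ CM libraries. The groups overlapped in both cell types, and the increase passed the test in CD26+ NFs (log2 2.20 ± 0.77, adjusted p = 0.0393) and not in CD26- NFs (log2 0.77 ± 0.58, adjusted p = 0.402). As sums over libraries, Bmp2 had 14 counts in CD26+ control and 124 in CD26+ CM, a ratio of 4.74 on the CPM scale with an exact 95% interval of 2.72 to 8.93 that covers counting error only.

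Bmp10, known from the heart and the circulation, had more counts in tumour CM in both cell types, from very few. It reached the filter on low counts through CD26- CM alone, with 6 to 17 counts a library there and 0 to 7 elsewhere, so its presence among the tested genes depended on that rise and its calls are not read as results. It had 6 counts in CD26- control and 75 in CD26- CM libraries, a ratio of 5.91 (2.59 to 16.6), and 2 in CD26+ control and 26 in CD26+ CM, a ratio of 6.96 (1.74 to 60.5). With only the CD26+ groups in the fit Bmp10 was not tested. No library held more than 1.28 CPM of it.

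Of the other 6 tested ligands of the BMP and GDF group 3 were lower in CD26+ NFs in control medium (25.4% of all genes) and 4 in tumour CM (29.3%). With the epithelial covariate Bmp7, Gdf6 and Gdf15 lost these calls, and Bmp8b lost its call in control medium. Bmp7, which acts in epithelial and kidney development, had 8 to 41 counts in CD26- and 2 to 11 in CD26+ libraries. Bmp8b, known from brown fat, had 34 to 75 and 2 to 13 counts, with 8.74% of its exon length shared with Gm17244 on the other strand. Both were tested only through the CD26- libraries, where they were high, so they had to differ and their calls in the counts above, with the covariate too, support nothing. Gdf6, a ligand of joint and eye development, had -2.18 and -1.10 (adjusted p = 0.000153 and 0.00243). Gdf15, a stress-induced member of the family, was 5.71, 7.40 and 9.99 CPM in CD26- CM and 3.53, 4.90 and 7.50 CPM in CD26+ CM libraries. Those groups overlapped (log2 -0.58 ± 0.18, adjusted p = 0.0121), the control libraries were at 9.49, 8.11 and 5.14 CPM and at 7.85, 5.78 and 6.16 CPM, and the sign turned with the epithelial covariate (log2 0.20, adjusted p = 0.707). Bmp6 and Gdf11 passed no comparison, with Gdf11 between 31.0 and 44.6 CPM in all libraries. Bmp3, Bmp4, Bmp5, Bmp8a, Bmp15, Gdf1, Gdf2, Gdf3, Gdf5, Gdf7 and Gdf9 had at most 14 counts in any library and were not tested. Exons of Gdf1 lie wholly within those of Cers1 on the same strand, so its 0 counts cannot be read as absence.

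**Figure D2:**
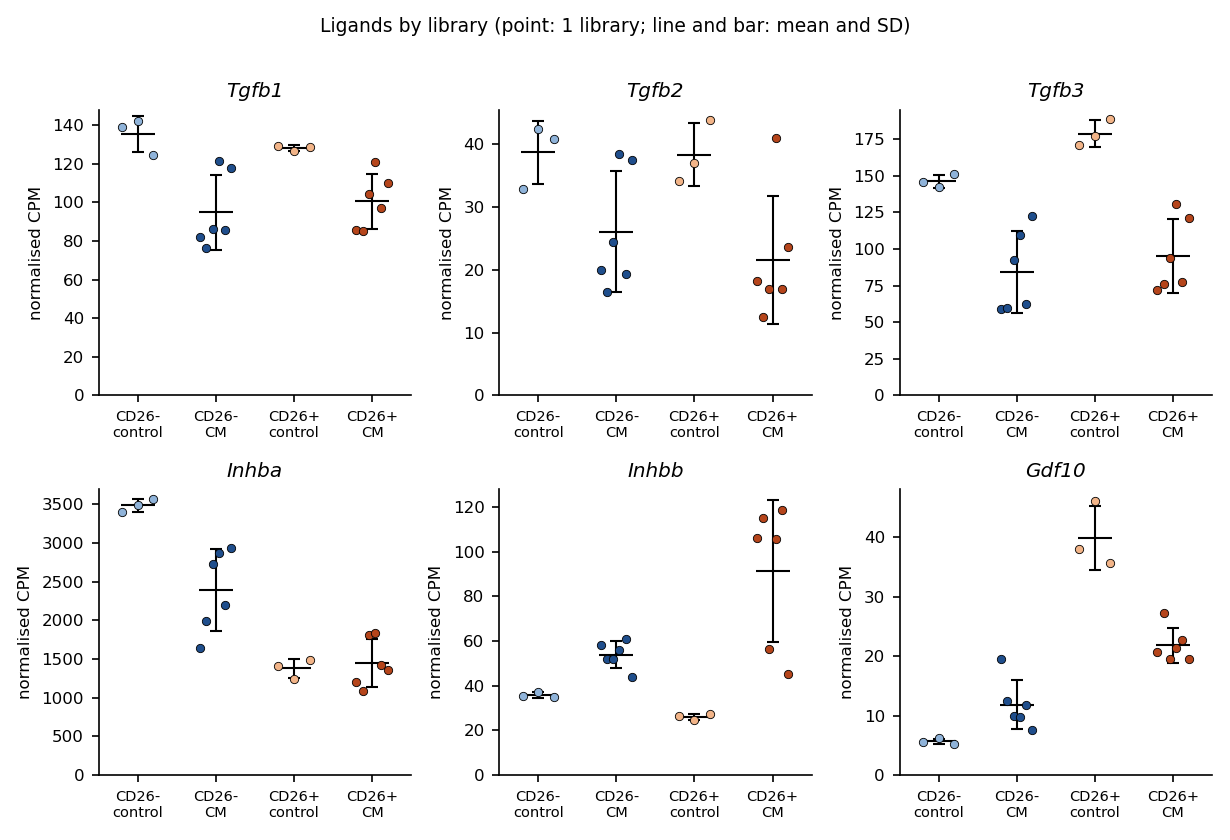
Normalised CPM (y axis, from 0) of 6 ligand genes in the 4 groups (x axis), with 1 point a library and the mean and SD as line and bars. Tgfb1 and Tgfb3 sit lower in CM than in control medium in both cell types, Gdf10 rises in CD26- and falls in CD26+ NFs, and Inhbb reaches 118 CPM in CD26+ CM.

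Control medium showed CD26+ NFs above CD26- NFs for 3 of the 5 genes of latency and processing (25.0% of all genes) and below them for 1 (25.4%), and tumour CM showed them above for 3 (29.3%). With the epithelial covariate Bmp1 and Ltbp3 passed in control medium and Bmp1 in tumour CM. Bmp1, a protease that cleaves procollagen and latent complexes, was 502, 472 and 475 CPM in CD26- control and 254, 333 and 472 CPM in CD26- CM libraries. The values in CD26+ NFs were 897, 935 and 899 CPM in control medium and 543, 681 and 794 CPM in CM. It was higher in CD26+ NFs in both media without overlap (log2 0.91 ± 0.20 and 0.93 ± 0.14, adjusted p = 0.000891 and 1.88e-05), and its lower values in CM did not pass the test (log2 -0.45 and -0.43, adjusted p = 0.08 and 0.0642).

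Ltbp3, which carries latent TGF-beta, was 213, 204 and 168 CPM in CD26- control and 213, 223 and 258 CPM in CD26- CM libraries, and 370.0, 389.8 and 360.0 CPM in CD26+ control and 269, 316 and 364 CPM in CD26+ CM. It was higher in CD26+ NFs in both media (log2 0.94 ± 0.10 and 0.47 ± 0.07, adjusted p = 9.67e-07 and 2.1e-05) and fell in CM in CD26+ NFs alone at the threshold (log2 -0.24 ± 0.09, adjusted p = 0.0435, against 0.22 ± 0.09, adjusted p = 0.0986). The difference was -0.46 ± 0.12 (adjusted p = 0.0308).

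Ltbp1, the main carrier of latent TGF-beta1, was 265, 270.0 and 269.9 CPM in CD26- control and 234, 252 and 283 CPM in CD26- CM libraries. CD26+ NFs had 178, 176 and 172 CPM in control medium and 164, 247 and 286 CPM in CM, a rise that passed the test although the lowest CM library lay below the controls (log2 0.46 ± 0.12, adjusted p = 0.00915, against 0.45 and 0.0528 with only the CD26+ groups in the fit). It was lower in CD26+ NFs in control medium (log2 -0.61 ± 0.14, adjusted p = 0.00126) and had a log2 of -0.08 ± 0.10 in tumour CM (adjusted p = 0.506). Ltbp4, an elastic fibre protein, was 17.0, 18.5 and 13.9 CPM in CD26- control and 12.7, 22.0 and 26.7 CPM in CD26- CM libraries, and 25.5, 28.7 and 26.5 CPM and 20.5, 32.5 and 34.6 CPM in CD26+ NFs. It was higher in CD26+ NFs in both media (log2 0.71 and 0.51, adjusted p = 0.0136 and 0.00882). Ltbp2, a microfibril protein that does not bind TGF-beta, was 1688, 1744 and 1554 CPM in CD26- control and 995, 1252 and 2006 CPM in CD26- CM libraries, and 1875, 1860 and 1938 CPM and 1338, 1658 and 2231 CPM in CD26+ NFs. It passed none of the 5 group comparisons, and differed between the cell types in tumour CM with the line as a block (log2 0.35 against 0.33, adjusted p = 0.00063 against 0.0935). Ltbp2 shares 9.34% of its exon length with D030025P21Rik on the other strand.

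Receptors were higher in CD26+ NFs wherever they differed, in 5 of 12 tested in control medium against 25.0% of all genes and in 9 of 12 in tumour CM against 29.3%. With the epithelial covariate 3 (Acvr1b, Tgfbr2 and Tgfbr3) and 5 (these, Acvr1 and Bmpr2) passed. Tgfbr3, which encodes the co-receptor betaglycan that presents TGF-beta2 and inhibin, separated the cell types most. It was 84.8, 87.5 and 82.2 CPM in CD26- control and 107, 151 and 180 CPM in CD26- CM libraries, without overlap (log2 0.81 ± 0.12, adjusted p = 0.000455). CD26+ values were 344, 393 and 344 CPM in control medium and 337, 381 and 420 CPM in CM (log2 0.09 ± 0.11, adjusted p = 0.619). The cell types differed by 2.09 ± 0.14 in control medium and 1.36 ± 0.10 in tumour CM (adjusted p = 5.51e-09 and 3.87e-09), by 1.75 and 1.08 with the covariate, and the CM effects by -0.72 ± 0.16 (adjusted p = 0.0146).

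Acvrl1, which encodes the type I receptor ALK1 of BMP9 and BMP10, rose in both cell types. It was 17.1, 17.7 and 13.5 CPM in CD26- control and 27.6, 31.3 and 40.1 CPM in CD26- CM libraries, and 13.5, 16.1 and 15.5 CPM and 28.5, 41.7 and 53.5 CPM in CD26+ NFs. No CM library overlapped the controls (log2 1.02 ± 0.18 and 1.48 ± 0.18, adjusted p = 0.00163 and 1.52e-05). The ALK1 ligand gene Gdf2, which encodes BMP9, had at most 2 counts in a library.

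Bmpr1a, a type I BMP receptor, fell in both cell types, from 186, 192 and 209 CPM to 147, 155 and 165 CPM in CD26- NFs and from 213, 233 and 220 CPM to 185, 193 and 210 CPM in CD26+ NFs. The groups did not overlap (log2 -0.32 ± 0.05 and -0.18 ± 0.05, adjusted p = 0.000899 and 0.0168). Acvr1, the type I receptor ALK2, fell from 102, 108 and 114 CPM to 69.3, 75.4 and 88.4 CPM in CD26- NFs without overlap (log2 -0.47 ± 0.07, adjusted p = 0.000657). In CD26+ NFs it was 106, 112 and 112 CPM in control medium and 92.8, 103 and 109 CPM in CM (log2 -0.12 ± 0.07, adjusted p = 0.263), and the CM effects differed by 0.36 ± 0.11 (adjusted p = 0.0485).

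Acvr2a, a type II receptor of activins, fell in CD26+ NFs from 62.2, 75.3 and 70.0 CPM to 30.4, 36.2 and 53.9 CPM without overlap (log2 -0.85 ± 0.13, adjusted p = 0.000189). In CD26- NFs it was 32.5, 36.6 and 37.5 CPM in control medium and 25.9, 28.3 and 36.2 CPM in CM (log2 -0.29 ± 0.14, adjusted p = 0.183). Acvr1b, the activin type I receptor ALK4, rose in CD26+ NFs from 50.2, 50.7 and 47.7 CPM to 53.1, 65.0 and 67.5 CPM without overlap (log2 0.33 ± 0.07, adjusted p = 0.00204). In CD26- NFs it stayed between 32.2 and 36.8 CPM in all 9 libraries, so the cell types were apart by 0.54 ± 0.08 in control medium and 0.86 ± 0.06 in tumour CM (adjusted p = 3.01e-05 and 2.7e-09). Acvr2a shares 7.84% of its exon length with Orc4 on the other strand.

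Tgfbr1 and Tgfbr2 form the signalling receptor of TGF-beta. Tgfbr1, the type I receptor ALK5, was 300.4, 321 and 323 CPM in CD26- control and 193, 253 and 318 CPM in CD26- CM libraries, and 242, 266 and 268 CPM and 305, 322 and 343 CPM in CD26+ NFs. Neither CM effect passed the test (log2 -0.32 ± 0.12 and 0.33 ± 0.12, adjusted p = 0.0825 and 0.0538), but they lay in opposite directions and their difference passed it (0.64 ± 0.17, adjusted p = 0.0306). Tgfbr2, the type II receptor, was higher in CD26+ NFs in both media (log2 0.58 ± 0.07 and 0.44 ± 0.05, adjusted p = 3.83e-06 and 1.06e-06). Bmpr2, the type II BMP receptor, was 256, 275 and 286 CPM in CD26- control and 213, 224 and 277 CPM in CD26- CM libraries, and 271, 291 and 297 CPM and 302, 323 and 397 CPM in CD26+ NFs. Its CM effects of -0.23 and 0.22 did not pass the test each, and differed by 0.45 ± 0.12 (adjusted p = 0.0274). Eng, the endothelial co-receptor endoglin, and Bmpr1b, a BMP type I receptor, passed none of the 5 group comparisons and differed among lines, Acvr2b passed no comparison, and Acvr1c had at most 3 counts in a library and was not tested.

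Among antagonists 4 of 8 tested rose in CD26+ NFs in tumour CM, where 15.2% of all genes did, and 2 fell, against 13.4%, with gremlin 1, follistatin and noggin among those that rose. Grem1 was 162, 189 and 167 CPM in CD26- control and 227, 445 and 602 CPM in CD26- CM libraries, and 75.3, 77.3 and 89.8 CPM in CD26+ control and 115, 214 and 419 CPM in CD26+ CM. Every CM library lay above every control of its cell type (log2 1.28 ± 0.39 and 1.55 ± 0.40, adjusted p = 0.0332 and 0.00719). Grem1 was lower in CD26+ NFs in both media (log2 -1.10 ± 0.43 and -0.82 ± 0.30, adjusted p = 0.0419 and 0.0242).

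Fst, which encodes the activin-binding follistatin, went from 148, 157 and 150.5 CPM to 172, 193 and 214 CPM in CD26- NFs and from 127, 140.2 and 136 CPM to 172, 205 and 253 CPM in CD26+ NFs. The groups did not overlap (log2 0.35 ± 0.09 and 0.61 ± 0.09, adjusted p = 0.0182 and 0.000149).

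Nog, which encodes noggin, was scarce in control medium, at 4.26, 3.50 and 3.18 CPM in CD26- and 3.56, 3.33 and 4.01 CPM in CD26+ libraries. In CM it was 2.00, 3.78 and 9.73 CPM in CD26- and 7.43, 11.4 and 17.6 CPM in CD26+ NFs, where all CM libraries lay above the controls. The rise passed the test in CD26+ NFs (log2 1.72 ± 0.40, adjusted p = 0.00403) and not in CD26- NFs (log2 0.33 ± 0.42, adjusted p = 0.646). The test of the difference gave 1.39 ± 0.58 (adjusted p = 0.14), and 1.43 (adjusted p = 0.00798) with the tumour line as a block.

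Bambi, a membrane pseudoreceptor that lacks a kinase domain, was 9.00, 12.0 and 9.54 CPM in CD26- control and 9.39, 12.0 and 15.7 CPM in CD26- CM libraries, with overlap (log2 0.26 ± 0.14, adjusted p = 0.211). In CD26+ NFs it fell from 26.3, 27.9 and 24.1 CPM to 17.8, 19.1 and 23.3 CPM without overlap (log2 -0.41 ± 0.12, adjusted p = 0.0169). It was higher in CD26+ NFs in both media (log2 1.35 ± 0.15 and 0.68 ± 0.11, adjusted p = 1.19e-06 and 2.63e-05). Chrd, which encodes the BMP antagonist chordin, fell in CD26+ NFs (log2 -0.75 ± 0.24, adjusted p = 0.0252) and was higher there in control medium (log2 0.78, adjusted p = 0.0282).

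Fstl1, a secreted glycoprotein of the follistatin family, had the highest level per kb of exon among the members in CD26+ NFs, at 795 CPM per kb in control medium and 761 in tumour CM. In CPM it was 1267, 1320 and 1373 in CD26- control and 1214, 1402 and 1834 in CD26- CM libraries, and 3648, 4222 and 3849 and 3402, 3718 and 4202 in CD26+ NFs. CM left it without a called change, and the cell types were apart by 1.57 ± 0.14 and 1.33 ± 0.10 on the log2 scale (adjusted p = 1.65e-07 and 8.69e-09), or 1.46 and 1.24 with the covariate. In CD26- NFs the highest level per kb belonged to Inhba, at 546 in control medium and 375 in tumour CM, ahead of Fstl1 at 269 and 304 and Ltbp2 at 203 and 168. Fstl3, another follistatin-like protein, passed no comparison, and 47.3% of its exon length overlaps Prss57 on the other strand.

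**Figure D3:**
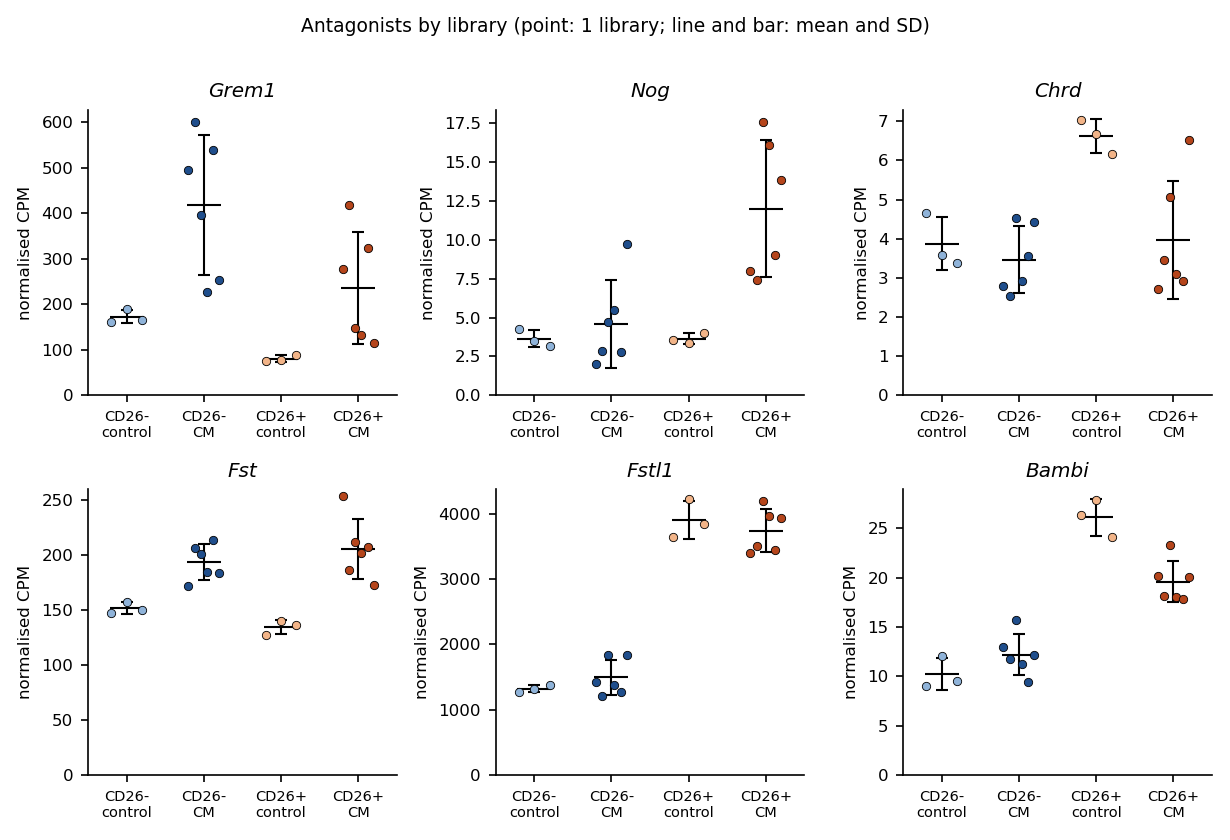
Normalised CPM (y axis, from 0) of 6 antagonists in the 4 groups (x axis), with 1 point a library and the mean and SD as line and bars. Grem1 and Fst are higher in all CM libraries than in controls of the same cell type, Nog only in CD26+ NFs, and Fstl1 and Bambi separate the cell types.

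All 8 Smad genes differed between the cell types in control medium, 5 higher in CD26+ NFs against 25.0% of all genes and 3 lower against 25.4%, and Smad1 and Smad6 passed with the epithelial covariate. The BMP-branch Smad1, Smad5 and Smad9, the shared Smad4 and the inhibitory Smad6 were higher in CD26+ NFs, and Smad2, Smad3 and Smad7 were lower. Smad1 was 42.9, 44.3 and 43.5 CPM in CD26- and 55.9, 59.6 and 57.7 CPM in CD26+ control libraries, and ran from 39.9 to 47.4 (median 43.6) and from 56.8 to 60.9 CPM (median 58.7) in CM. It did not overlap between cell types (log2 0.41 ± 0.06 and 0.44 ± 0.04, adjusted p = 1.84e-05 and 1.09e-07). Smad6 had the largest cell type difference of the family (log2 1.41 ± 0.20 and 1.06 ± 0.14, adjusted p = 1.75e-05 and 5.34e-06). Smad5, Smad4 and Smad9 had log2 values of 0.18, 0.22 and 0.61 in control medium and 0.30, 0.22 and 0.52 in tumour CM, all past the FDR.

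Smad3, the TGF-beta and activin effector, was 167, 166 and 173 CPM in CD26- control and 123, 133 and 157 CPM in CD26- CM libraries, all lower (log2 -0.32 ± 0.08, adjusted p = 0.0157). In CD26+ NFs it was 113, 103 and 109 CPM in control medium and 101, 128 and 140 CPM in CM (log2 0.22 ± 0.09, adjusted p = 0.0655). The effects differed by 0.54 ± 0.12 (adjusted p = 0.0134), and the cell type difference of -0.65 ± 0.10 in control medium (adjusted p = 3.04e-05) was -0.11 ± 0.07 in tumour CM (adjusted p = 0.193).

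Smad7, which is induced by TGF-beta and blocks its receptor, followed the same course. It was 137, 129 and 119 CPM in CD26- control and 96.9, 107 and 124 CPM in CD26- CM libraries, and 85.1, 84.7 and 85.0 CPM and 86.8, 98.8 and 115 CPM in CD26+ NFs. The CM effects were -0.24 ± 0.08 and 0.23 ± 0.09 (adjusted p = 0.0609 and 0.0564) and differed by 0.47 ± 0.12 (adjusted p = 0.0259). Smad2 was 64.8, 69.2 and 75.3 CPM in CD26- and 56.7, 61.3 and 60.3 CPM in CD26+ control libraries, and ran from 62.8 to 68.3 (median 66.5) and from 57.8 to 66.1 CPM (median 62.2) in CM (log2 -0.23 ± 0.06 between the cell types in control medium, adjusted p = 0.00405).

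Of the 4 Id genes, targets of BMP signalling, Id1 rose in CD26- NFs and Id2 in CD26+ NFs. Id1 was 56.3, 57.3 and 44.2 CPM in CD26- control and 62.1, 65.9 and 77.2 CPM in CD26- CM libraries, all higher (log2 0.36 ± 0.11, adjusted p = 0.0419). In CD26+ NFs it was 77.1, 86.9 and 77.4 CPM in control medium and 62.6, 76.1 and 90.3 CPM in CM (log2 -0.06 ± 0.11, adjusted p = 0.716). Id2 was 34.2, 35.5 and 40.9 CPM in CD26- control and 31.9, 39.0 and 48.4 CPM in CD26- CM libraries, with overlap (log2 0.10 ± 0.12, adjusted p = 0.65). It went from 43.3, 52.5 and 44.4 CPM to 57.4, 70.5 and 81.9 CPM in CD26+ NFs without overlap (log2 0.55 ± 0.12, adjusted p = 0.00265). The differences in CM effect were -0.42 for Id1 and 0.46 for Id2 (adjusted p = 0.104 and 0.102), and -0.43 and 0.46 (adjusted p = 0.042 and 0.0481) with the tumour line as a block.

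Id3 was 224, 216 and 187 CPM in CD26- and 326, 379 and 359.9 CPM in CD26+ control libraries, and ran from 156 to 227 (median 195) and from 308 to 364 CPM (median 319) in CM. It was higher in CD26+ NFs without overlap (log2 0.76 ± 0.12 and 0.75 ± 0.08, adjusted p = 3.92e-05 and 6.97e-07) and unchanged by call in CM. Id4 passed none of the 5 group comparisons and differed among the lines. The blocked fit placed it higher in CD26+ NFs in tumour CM (log2 0.37, adjusted p = 0.000253).

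The CM effect differed between the cell types for Gdf10, Smad3, Tgfbr3, Smad7, Bmpr2, Tgfbr1, Ltbp3, Inhbb, Bambi and Acvr1. For Gdf10 the opposite changes were each past the FDR. Inhbb, Tgfbr1, Smad3, Smad7, Bmpr2 and Acvr1 moved toward CD26+ NFs, and Gdf10, Tgfbr3, Ltbp3 and Bambi toward CD26- NFs. In control medium Gdf10, Tgfbr3, Ltbp3 and Bambi were all higher in CD26+ NFs and Smad3 and Smad7 higher in CD26- NFs, so for these 6 genes the cell types lay closer together in tumour CM. Bmpr2 and Acvr1 lay further apart there, with CD26+ over CD26- folds of 1.05 and 1.02 in control medium and 1.44 and 1.31 in tumour CM. Inhbb (0.73 and 1.69) and Tgfbr1 (0.82 and 1.28) changed sides between the media. Because each line gave CM to a pair of libraries, the fit with the line as a block was also made, and 19 members passed there, the 10 above among them. The share of all genes past the FDR in that fit is not given here, so the larger count is not read as a result. Of the 9 added, Inhba (0.62, adjusted p = 0.00476), Ltbp1 (0.52, adjusted p = 0.00888) and Acvr1b (0.32, adjusted p = 0.0121) moved toward CD26+ NFs, as did Nog and Id2. Acvr2a (-0.57, adjusted p = 0.00439) and Eng (-0.24, adjusted p = 0.033) moved toward CD26- NFs, as did Id1.

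**Figure D4:**
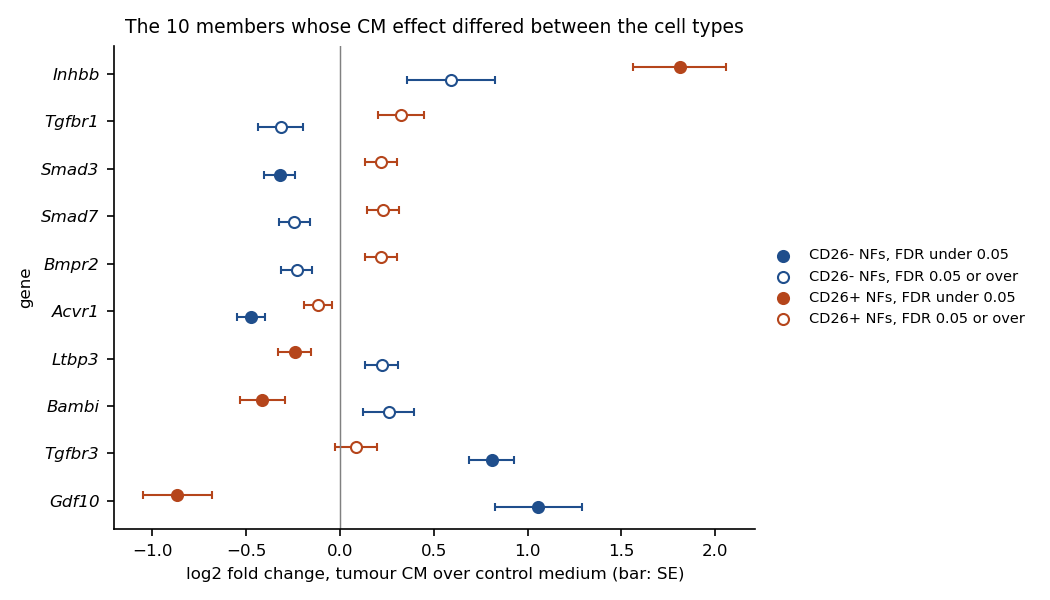
Log2 fold change of tumour CM over control medium with its SE (x axis) for the 10 members whose CM effect differed between CD26- and CD26+ NFs (y axis), with filled points past the FDR in that cell type. Gdf10 lies at 1.06 and -0.87, and 4 of the 10 genes (Tgfbr1, Smad7, Bmpr2 and Smad3) lie below 0 in CD26- NFs and above 0 in CD26+ NFs.

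Among the 6 lines the members that differed were Id4, Tgfb3, Grem1, Ltbp2, Ltbp4, Tgfb2, Bmp1, Bmp2, Tgfb1, Eng, Bmpr1b, Acvr2a and Inhba. For Id4, an Id gene also known from basal mammary epithelium, CM of 13-MCB-17 gave 34.3 CPM in CD26- and 47.7 CPM in CD26+ NFs, while 13-MCB-138 gave 78.4 and 87.8 CPM and 18-MCB-12 gave 73.6 and 93.1 CPM (adjusted p = 0.00266). CM of 10-SJK-221, 13-MCB-44 and 13-MCB-90 gave 43.2, 53.3 and 47.9 CPM in CD26- and 62.7, 72.3 and 59.9 CPM in CD26+ NFs. The control libraries held 49.9, 48.9 and 45.6 CPM and 56.9, 63.0 and 58.5 CPM, so lines lay on both sides of the controls.

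Ranked by Tgfb3 or by Grem1, the lines fell into the same 3 and 3. Of its 3, 18-MCB-12 lay closest to the other 3 for both genes in both cell types. For Tgfb3 (adjusted p = 0.00279) 13-MCB-17, 10-SJK-221 and 13-MCB-90 gave 58.9, 59.7 and 62.3 CPM in CD26- and 72.2, 75.9 and 77.6 CPM in CD26+ NFs. CM of 18-MCB-12, 13-MCB-44 and 13-MCB-138 gave 92.6, 109.7 and 123 CPM and 93.8, 131 and 121 CPM. For Grem1 (adjusted p = 0.00436) the first 3 lines gave 495, 602 and 539 CPM in CD26- and 279, 419 and 324 CPM in CD26+ NFs, and the others 396, 227 and 253 CPM and 149, 134 and 115 CPM. The lines with the lower Tgfb3 thus had the higher Grem1 in both cell types, as a description over 6 lines whose libraries share the CM.

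Tgfb1 (adjusted p = 0.0156) and Tgfb2 (adjusted p = 0.00757) were lowest with 10-SJK-221 and highest with 13-MCB-44 in both cell types. Their highest values exceeded the lowest 1.60-fold and 1.42-fold for Tgfb1, and 2.34-fold and 3.26-fold for Tgfb2, in CD26- and CD26+ NFs. Ltbp4 (adjusted p = 0.00735) was lowest with 13-MCB-44 in both cell types and highest with 13-MCB-17. Ltbp2 (adjusted p = 0.00439) was highest with 13-MCB-138 in CD26- and with 18-MCB-12 in CD26+ NFs, at 2006 and 2231 CPM. Bmp1 (adjusted p = 0.0144) was lowest with 10-SJK-221 in both, at 254 and 543 CPM.

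Bmp2 (adjusted p = 0.0151) was lowest with 13-MCB-138 in both cell types, at 0.354 and 0.179 CPM, and highest with 13-MCB-90 at 3.49 CPM in CD26- and with 13-MCB-17 at 3.34 CPM in CD26+ NFs. Inhba (adjusted p = 0.0478) spread 1.79-fold in CD26- and 1.69-fold in CD26+ NFs, and Eng, Bmpr1b and Acvr2a had adjusted p of 0.0174, 0.0256 and 0.0477. Smad7 and Id1, named here whatever their result, did not differ among the lines (adjusted p = 0.662 and 0.389).

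**Figure D5:**
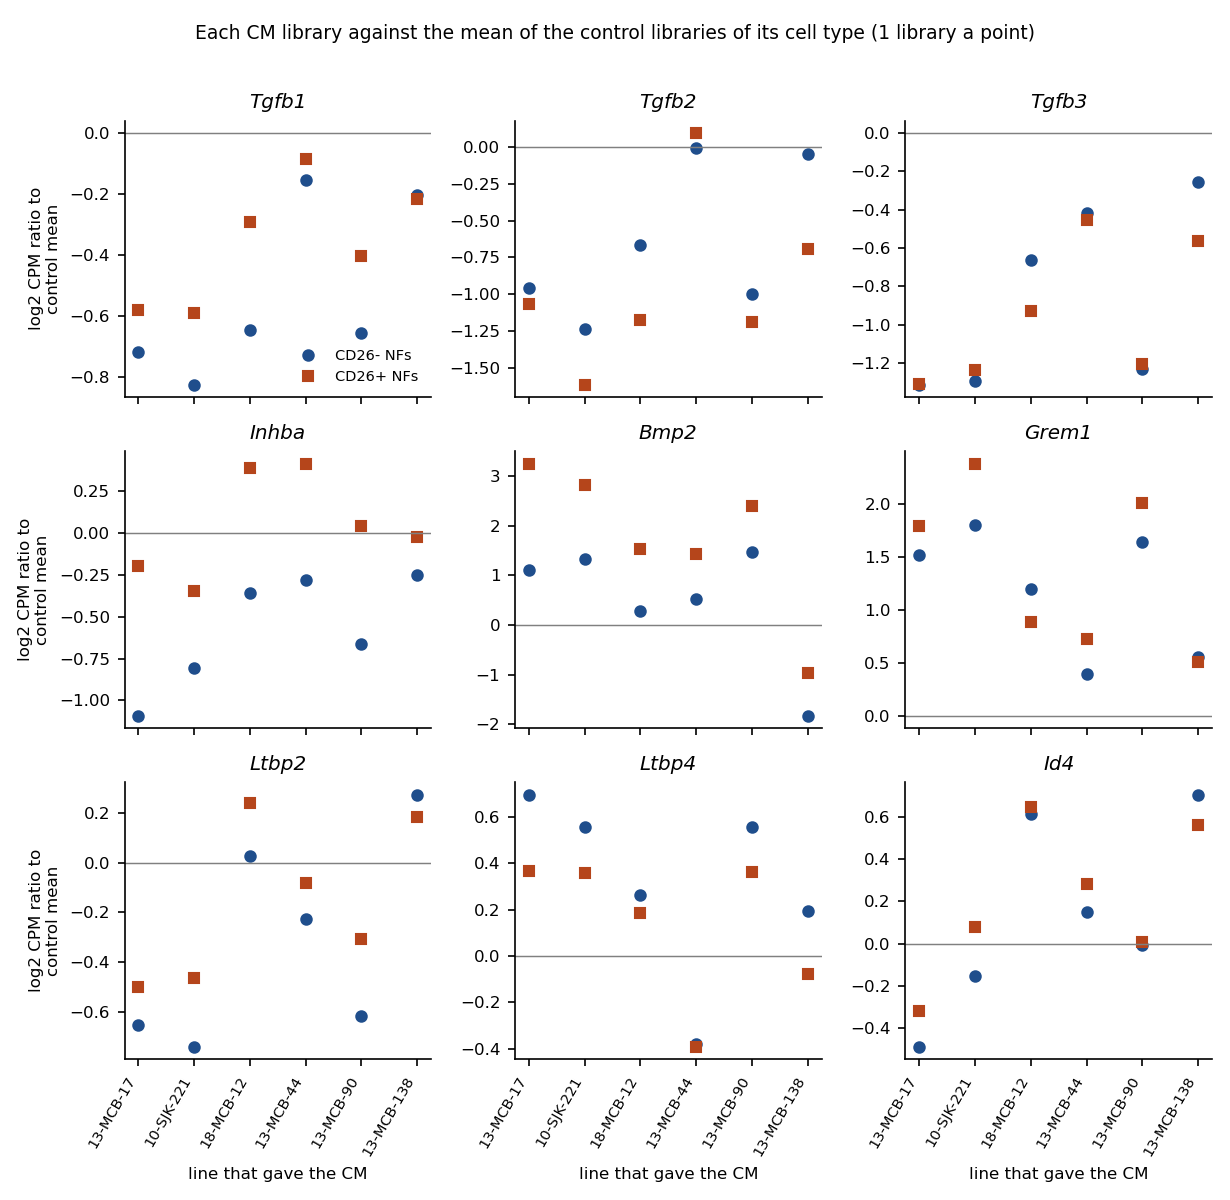
Log2 ratio of the CPM of each CM library to the mean of the control libraries of its cell type (y axis) by the line that gave the CM (x axis), for 9 members, with circles for CD26- and squares for CD26+ NFs. In both cell types 13-MCB-17, 10-SJK-221 and 13-MCB-90 have the 3 highest points of Grem1 and the 3 lowest of Tgfb3, and 13-MCB-138 gives the lowest Bmp2.

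Other genes of the pathway, listed by role but with earlier results of these data known, gave further counts. Of 43 tested, 2 were higher and 9 lower in tumour CM in CD26- NFs, where 7.88% and 7.28% of all genes were, and 16 higher and 7 lower in CD26+ NFs, where 15.2% and 13.4% were. A CM effect shifted toward CD26+ NFs was found for 10 of the 43 against 4.53% of all genes, and toward CD26- NFs for 2 against 3.01%. Dcn, which encodes the TGF-beta-binding proteoglycan decorin, rose in both cell types (log2 2.64 ± 0.30 and 3.19 ± 0.31, adjusted p = 8.75e-05 and 1.48e-06). Thbs1, which encodes thrombospondin 1, an activator of latent TGF-beta, rose in CD26+ NFs (log2 1.35 ± 0.15, adjusted p = 4.74e-06, difference 1.12 ± 0.20, adjusted p = 0.00427). Itgb8, the beta subunit of an integrin that releases latent TGF-beta, fell in CD26- NFs (log2 -1.34 ± 0.19, adjusted p = 0.000371) and so did the BMP1-like protease gene Tll1 (log2 -0.92 ± 0.14, adjusted p = 0.000606). Fbn2, a microfibril gene, fell in CD26+ NFs (log2 -1.75 ± 0.22, adjusted p = 1.97e-05). CD26+ NFs exceeded CD26- NFs for 12 of the 43 and stood under them for 13 in control medium (25.0% and 25.4% of all genes), and for 22 and 8 in tumour CM (29.3% each), and 4 of the 43 differed among lines (6.56%).

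Genes known to respond to TGF-beta did not move one way. Of 24 tested, 7 changed in CD26- NFs (1 up, 6 down) and 13 in CD26+ NFs (6 up, 7 down). Of all genes 7.88% were up and 7.28% down in CD26- NFs, and 15.2% and 13.4% in CD26+ NFs. The list had medians of -0.33 and -0.20 on the log2 scale. Nox4 and the matrix genes Postn and Col3a1 fell in both cell types (log2 -0.97, -1.29 and -1.20 in CD26- NFs and -0.51, -1.65 and -1.82 in CD26+ NFs). CD26+ NFs had more RNA of 8 and less of 8 in control medium (25.0% and 25.4% of all genes), and of 10 and 3 in tumour CM (29.3% each). The interaction passed for 4 genes, Cdkn1a, Skil and Tnc among them, each toward CD26+ NFs (4.53% of all genes). Among the lines 9 of the 24 differed (6.56% of all genes), the contractile genes Acta2, Tagln and Cnn1 among them (adjusted p = 0.00209, 0.00272 and 0.000887).

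Of 15 tested BMP responsive genes 4 changed in CD26- NFs, each downward (7.28% of all genes), and 7 in CD26+ NFs (1 up, 6 down, against 15.2% and 13.4% of all genes), with medians of -0.24 and -0.46 on the log2 scale. Runx2, a bone transcription factor, fell in both (log2 -0.25 ± 0.07 and -0.75 ± 0.07, adjusted p = 0.0187 and 6.15e-07, difference -0.50 ± 0.10, adjusted p = 0.00602). Hey1, a Notch and BMP target, fell in CD26- NFs (log2 -1.36 ± 0.21, adjusted p = 0.000653). CD26+ NFs had more RNA of 8 and less of 4 in control medium (25.0% and 25.4% of all genes), and of 8 and 3 in tumour CM (29.3% each). The interaction passed for 1 gene each way (4.53% and 3.01% of all genes), and 4 of 14 differed among the lines (6.56%).

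Over the 18 libraries the genes whose log2 CPM followed Inhba most closely were Syt13, Fbxo33 and Fzd5 (Pearson r = 0.972, 0.965 and 0.964). Those nearest to Grem1 were Parvb, Arhgdib and Hmga2 (Pearson r = 0.974, 0.966 and 0.963). These correlations describe libraries that share cell type, medium and line.

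The calls did not rest equally on all libraries. When 1 library at a time was left out, 7 of the 14 calls in CD26- NFs, 13 of 19 in CD26+ NFs, 23 of 29 in control medium, 30 of 32 in tumour CM, 1 of 10 for the difference and 8 of 13 among lines held throughout. In CD26- NFs the count fell to 7, 9 and 8 without control replicates 1, 2 and 3. There Tgfb1 lost its call without replicate 1 (log2 -0.48, adjusted p = 0.0716) or 2 (log2 -0.47, adjusted p = 0.069), Fst without 1 (adjusted p = 0.0777) or 3 (adjusted p = 0.0825), and Smad3 without 1 (adjusted p = 0.062) or 3 (adjusted p = 0.0902). Tgfb3, Grem1, Id1 and Inhba lost theirs without each of these 3 controls, with adjusted p of up to 0.0933, 0.126, 0.244 and 0.143. Grem1 also did so without CD26- CM replicate 4, 5 or 8, Id1 without 5, 6, 7, 8 or 9, and Inhba without 4, 5 or 8, CD26+ CM replicate 17 or any CD26+ control.

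In CD26+ NFs Bmpr1a lost its call without control replicate 11 (adjusted p = 0.0732), Bambi without 10 or 11 (up to 0.0747) and Chrd without 10 or 11 (up to 0.0809). Bmp2 (up to 0.137), Ltbp3 (0.132) and Tgfb2 (0.157) lost theirs without each of the controls 10, 11 and 12. They also did so without some CM libraries, Bmp2 without 13, 14 or 17, Ltbp3 without 6, 8, 14, 16 or 17, and Tgfb2 without 6, 13, 14, 15 or 17, and Tgfb2 without each CD26- control.

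Between the cell types in control medium Ltbp4 lost its call without CD26- control replicate 3 (adjusted p = 0.0653), Bmpr1a without 1 or 11 (up to 0.0644), Chrd without 2, 3, 10 or 11 (up to 0.0974) and Inha without 2, 3, 10 or 12 (up to 0.136). Bmp7 did so without any control but replicate 2 (up to 0.103), and Grem1 without any of the 6 (up to 0.104). In tumour CM Acvrl1 lost its call without CM replicate 7, 13 or 15 (up to 0.0697) and Grem1 without 5, 8, 15 or 16 (up to 0.0634).

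The difference in CM effect depended on the control libraries. Without CD26- control replicates 1, 2 and 3 it left 5, 5 and 3 members, and without CD26+ control replicates 10, 11 and 12 it left 3, 1 and 5. Gdf10 kept its call in every such fit, and Tgfbr3 lost it without replicate 11 (log2 -0.67, adjusted p = 0.052). Smad3 lost it without 3 or 11 (adjusted p up to 0.0659), Ltbp3 without 3, 10 or 11 (0.0917), Bambi without 1, 3, 10, 11 or CM replicate 4 (0.0960), Bmpr2 without any control but 1 (0.0898) and Smad7 without any but 3 (0.0864). Tgfbr1, Inhbb and Acvr1 lost it without each of the 6 controls (0.0846, 0.0992 and 0.140), Inhbb also without CM replicate 13, 14, 16 or 17, and Acvr1 without 4, 5, 6, 8, 13, 15, 16 or 17.

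Among lines 22 members passed without CD26- CM replicate 9, the library with CM of 13-MCB-138. Tgfb1 lost its call without CM replicate 7 or 16 (adjusted p up to 0.0641), Eng without 8 or 17 (0.0764), Bmpr1b without 5, 6, 7, 8, 14, 15, 16 or 17 (0.105), Inhba without any CM library but 9 and 18 (0.135) and Acvr2a without any but 8 and 9 (0.133).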

How the data were processed

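Poly(A) RNA of 18 libraries was sequenced from TruSeq stranded mRNA preparations. The authors deposited raw counts per gene, and the submitters' processing notes name HISAT2 2.1.0, HTSeq and GRCm38; annotation release and counting strand are not given in the sources used here. Gene coordinates of all 66 members matched GENCODE M21, which also gave exon lengths. Groups came from the labels. 1 entry without a gene held 0 counts and was left out.

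Counts were filtered by filterByExpr, scaled by TMM and fitted in 1 model with 4 group means in edgeR 4.0.16 (R 4.3.3), in place of the study's DESeq2, with quasi-likelihood tests of 5 contrasts and Benjamini-Hochberg adjustment over all 14273 genes (FDR 0.05). Differences among lines were tested in the 12 CM libraries with cell type as a covariate, over 13344 genes. All adjusted p values come from these fits, and SE are of log2 fold changes. CPM are TMM-scaled. Alternatives were DESeq2 1.42.0, other scalings and filters, fewer groups, a line block, an epithelial covariate and leaving out each library. No 2 libraries of a group agreed within sampling noise (chi-square per degree of freedom at least 3.22).

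Members and lists were chosen with earlier results of these data known. Values in each control library, with the lowest, median and highest CM library, are given for up to 8 members past the FDR with the smallest p for the difference in CM effect and for lines, for the 5 higher and 5 lower members with the smallest p and at least 5 CPM in each group comparison, and for Tgfb1, Smad7, Id1, Inhba and Grem1. Values of Nog, Id2, Bmp10 and of members given by fold alone were added after they had been seen. Deviations from group means correlated between the 2 libraries of each line (r = 0.247 to 0.406 in 6 of 6 pairs), so lines pair the libraries. The 4 groups share 1 estimate of spread, and each CM library of a group had CM of another line. The p values of group comparisons therefore include differences among lines. Between controls of a group chi-square per degree of freedom was 3.22 to 6.36, and between CM libraries 3.34 to 59.5. The paper mentions independent experiments in general, but no source says that these control replicates were separate cultures or mice. Their spread may be technical. Depth was 9725723 to 14585349 counts a library, and intervals of ratios are exact and cover counting error only. Some genes and alleles are counted in totals and not reported here by name.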

Additional observations from a re-analysis of the deposited data

Results flagged for a closer look

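In 4 of 66 groups of 6 libraries, tested for the members named by value, a library lay far from the other 5, and chance marks about 1 in 20 such groups. Acvr2a was 36.2 CPM in CD26- CM replicate 9, the highest of its group, with a gap to the next of 0.657 of the whole range. Bmp2 was 0.354 CPM in the same library, the lowest of its group (0.641 of the range), and Bmpr2 was 277 CPM there, the highest (0.659). This library received CM of 13-MCB-138. Bmpr2 was also highest in CD26+ CM replicate 15, at 397 CPM (0.631 of the range), a library with CM of 18-MCB-12.

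The CM effect differed between CD26+ and CD26- NFs by the direct test for 10 members, given as the log2 effect in CD26+ minus that in CD26- NFs. The differences were -1.92 for Gdf10, 0.54 for Smad3, -0.72 for Tgfbr3, 0.47 for Smad7, 0.45 for Bmpr2, 0.64 for Tgfbr1, -0.46 for Ltbp3, 1.22 for Inhbb, -0.67 for Bambi and 0.36 for Acvr1.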

How the results depend on the processing

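The counts of 14, 19, 29, 32, 10 and 13 members past the FDR (CM effect in CD26- and in CD26+ NFs, cell types in control medium and in tumour CM, difference in CM effect, lines) stayed within 1.5 times under DESeq2, RLE and upper-quartile scaling and a minimum of 5 CPM. With log2 limits the first 5 were 1, 2, 4, 1 and 0. Without a filter on low counts lines gave 24. With the epithelial covariate the counts were 5 in CD26- NFs (added after seeing the data), 13 in control medium and 13 in tumour CM, and Gdf15 between cell types in tumour CM turned to 0.20 on the log2 scale (adjusted p = 0.707). With the line as a replicate block the difference in CM effect gave 19 and tumour CM 35, of which 31 were shared, with Bmp10 not tested. With only the groups compared, control medium gave 39 (the 29 and 10 more) and CD26- NFs 16 (the 14 and 2 more). In CD26+ NFs that fit gave 17, without Tgfb2, Chrd, Ltbp1 and Bmp2 (adjusted p = 0.0665, 0.0574, 0.0528 and 0.0604), with Bmp10 not tested and with Bmp1, Tgfbr1 and Tgfb1 added. In tumour CM it gave 31, without Grem1 (adjusted p = 0.0526), with Bmp10 not tested and with Smad2 added. Leaving out 1 library at a time gave 7 to 18, 13 to 24, 25 to 31, 30 to 35, 1 to 15 and 9 to 22. The cause was not tested. Shares of all genes past the FDR in these alternative fits are not given here, so their counts are not read as results about the members. A low depth limits Bmp2, Bmp10 and the members not tested.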
